A study of Rattus norvegicus with 6 samples.

Results

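Aminoacyl-tRNA synthetases are the enzymes that join each amino acid to its tRNA and so supply the ribosome with charged tRNA. The 36 genes described here were chosen by name, all 36 have a row among the 18237 rows of the gene counts, and 20 encode cytosolic enzymes while 16, whose symbols end in the suffix for the second gene, encode mitochondrial enzymes. The counts come from 6 RNA-seq libraries of cultured rat cells labelled NRVM, commonly read as ventricular myocytes of newborn rats, while the growth text names embryonic heart tissue. Cells of 3 libraries had received non-targeting siRNA (siNT) and those of the other 3 an siRNA against Mt2 (siMt2), and the 6 samples share 1 culture description. A protocol text common to all 6 names dexamethasone, isobutylmethylxanthine and insulin, and no source used here says whether these cells were exposed to them.

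Charging takes place in the cytosol for the main protein synthesis and in mitochondria for the few proteins of the mitochondrial genome, and most amino acids have a separate nuclear gene for each compartment. Gars and Kars make enzymes for both compartments from 1 gene, Eprs joins glutamyl and prolyl activities in 1 protein, and mitochondrial glutaminyl-tRNA is made by amidation and not by a synthetase of its own. In animals several cytosolic synthetases sit with 3 scaffold proteins in the multisynthetase complex, a particle that keeps charging close to the ribosome. The enzymes fall into class I and class II, which differ in the fold of the catalytic domain. Genes of many cytosolic synthetases are known targets of ATF4, a transcription factor of the amino acid and stress response, and uncharged tRNA is the signal that starts that response through the kinase GCN2.

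Promoter sequence is shown first because 1 element was counted in cytosolic and in no mitochondrial members, a difference that was not tested. The sites are those of the letters TGATGNAA, searched on both strands as the composite element bound by ATF4 with C/EBP proteins. Promoter windows of 300 bases, from 250 bases before to 50 bases after the start, were found in RefSeq for assembly GRCr8 for 17 cytosolic and 16 mitochondrial members. The element occurred for 7 of the 17 cytosolic members (41.2%, namely Aars, Cars, Iars, Mars, Nars, Tars and Yars) and for 0 of the 16 mitochondrial ones. Each of these members has 1 window, except Mars2 with 3. Counted by window and not by gene, the element occurred in 3.98% of all 33469 windows and in 2.11% of the 9836 windows of genes tested here. 4 of the sites are shown in 30 bases each, 5′ to 3′ on the strand of the gene, with the matching letters in capitals.
Cars: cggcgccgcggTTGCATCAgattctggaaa
Iars: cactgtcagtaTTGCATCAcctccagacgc
Mars: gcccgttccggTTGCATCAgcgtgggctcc
Tars: ctggcgtcccgTTGCATCAgctggttagct
In all of these the capitals are the same letters, TTGCATCA, which read TGATGCAA on the other strand. The windows lie on the minus strand, at chr1:208225334-208225363 for Cars, chr17:15193658-15193687 for Iars, chr7:65023752-65023781 for Mars and chr2:62114811-62114840 for Tars (GRCr8). The site lies 24 bases upstream of the start in Iars, 17 in Mars and 27 in Tars, and 17 bases downstream of it in Cars. The exact letters TGATGCAA occurred in the same 7 cytosolic members and in 0.795% of all windows. A match is a description of letters and no evidence of binding.

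The targeted transcript and the cell type labels were checked first. The siRNA target Mt2a had 90.7, 169.9 and 93.3 CPM (counts relative to the library total, with TMM scaling) under siNT and 70.7, 87.3 and 142 CPM under the siMt2 label. The groups overlapped, and the log2 fold change was -0.28 (95% interval -1.42 to 0.87, SE 0.42; adjusted p = 0.631 in edgeR; exact two-sided permutation p = 0.5 over 20 assignments, where 0.1 is the smallest that 3 against 3 allow). A lower level of the targeted transcript was not detectable against this spread, and groups are named by their labels throughout. Of 13 cardiomyocyte markers 10 had a row and 2 passed the filter on low counts, and Myh6, Actc1 and Tnni3 had 9, 4 and 3 counts over all libraries together. Library totals ran from 2859759 to 6817777 counts, lowest in siMt2 replicate 3, so that the 3 counts which a 0 leaves possible correspond to between 0.44 and 1.05 CPM.

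The synthetase genes differed between the groups about as often as other genes did, and in both directions. Of 11726 genes tested, 50.9% had an adjusted p under 0.05 by the edgeR quasi-likelihood fit, with 25.8% higher under the siMt2 label and 25.1% lower. Of the 35 members that passed the filter, 7 were higher, 11 were lower and 17 did not pass, which makes 51.4% called. Among the 20 cytosolic members 5 were higher and 7 lower (60% called, median log2 fold change 0.04), and among the 15 mitochondrial members tested 2 were higher and 4 lower (40.0% called, median -0.17), beside a median of 4.90e-04 over all genes tested. No fitted change of a member exceeded 1 on the log2 scale. The sizes ran from -0.91 to 0.70 for cytosolic and from -0.93 to 0.74 for mitochondrial members, as the plot by compartment and complex shows. The compartments also differed in the counts behind these calls. A cytosolic member had between 161 and 11754 counts in a library (median 1305, median SE 0.05), and a mitochondrial one between 7 and 1106 (median 66.5, median SE 0.19). The part of depth in the lower share of mitochondrial calls was not tested.

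**Figure D1:**
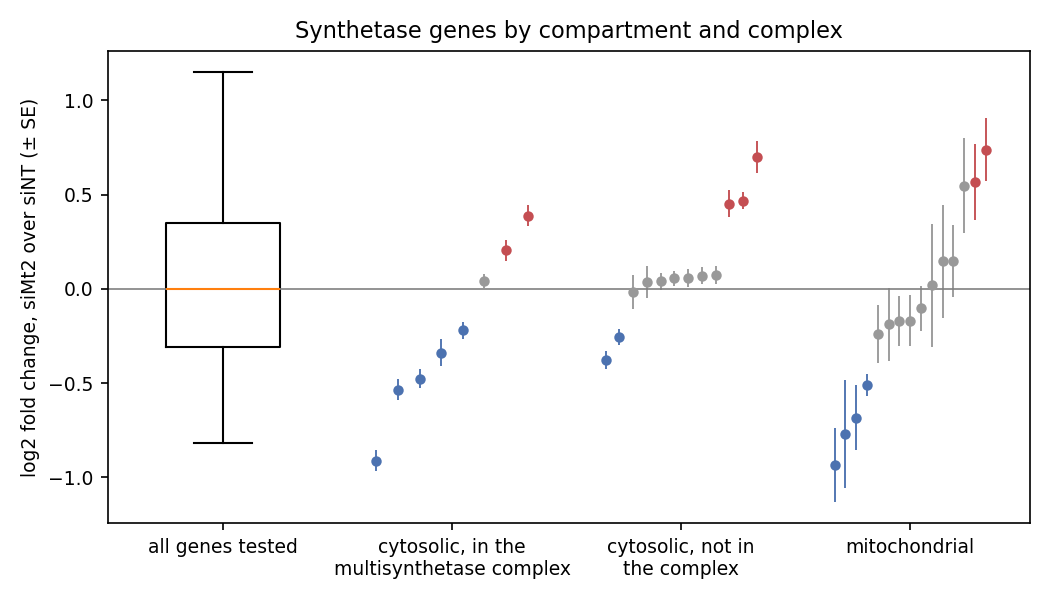
Log2 fold change of libraries labelled siMt2 over siNT with its SE for 35 synthetase genes, grouped as cytosolic members of the multisynthetase complex (8), other cytosolic members (12) and mitochondrial members (15), with red for higher and blue for lower at an adjusted p under 0.05 and grey for the rest; the box shows the quartiles and the 5th to 95th percentiles of all 11726 genes tested. 5 of the 8 complex members are blue, and 7 of the other 12 cytosolic members are grey and lie close to 0.

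Markers of cell state moved with the groups too, where 25.8% of all genes tested were higher and 25.1% lower. All 10 proliferation markers rose, with a summed level of 250.2 to 256 CPM under siNT and 842 to 873 CPM under the siMt2 label. Of 8 fibroblast markers tested 6 rose and 0 fell (summed level 7601 to 7755 and 9884 to 13857 CPM; the Col1a1 call was lost with no filter, with the replicate block and without any 1 library other than siMt2 replicate 3, at adjusted p from 0.052 to 0.0983), and of 7 smooth muscle markers 5 rose and 1 fell (2323 to 2367 and 4113 to 4209.9 CPM). Col1a1 (mean 4701 and 7795 CPM) made up most of the fibroblast sum. Dcn and Lum, among the 6 that rose, had 0 to 5 counts in each siNT library and 10 to 23 under the siMt2 label. Col1a1 and Dcn were named after their values were seen. Of the 2 cardiomyocyte markers tested, Tnnt2 rose and the other did not pass, and the mean summed level of the cardiomyocyte list was 38.8 and 65.1 CPM. Endothelial markers summed to 76.3 to 85.4 and 33.5 to 40.9 CPM, with Tie1 and Tek at 3 and 11 counts in all. Most of that sum was 1 gene, Eng (mean 73.0 and 31.6 CPM), and of the 2 endothelial markers tested Eng fell and Vwf did not pass. Leukocyte markers summed to 22.7 to 27.3 and 14.2 to 17.7 CPM, with Ptprc at 2 counts. Most of this sum was Cd14 (mean 23.5 and 14.4 CPM), the only leukocyte marker tested, which fell. Of 3 skeletal myoblast markers tested 1 rose and 1 fell, and the list summed to 48.6 to 51.1 and 47.2 to 50.8 CPM. The part of these markers in the synthetase results was not tested. In bulk RNA, fewer cells of a type and less RNA per cell cannot be told apart.

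The cytosolic members of the multisynthetase complex mostly changed, and more of them were lower than higher. Of 8 such genes 5 fell, 2 rose and 1, Eprs, did not pass, so that 87.5% were called where 50.9% of all genes tested were; that difference was not tested. Among the 12 other cytosolic members 2 fell, 3 rose and 7 did not pass. The median log2 fold change was -0.28 for the complex members and 0.06 for the others.

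Qars, which charges glutamine and is the only nuclear glutaminyl-tRNA synthetase gene, had the deepest fall of the cytosolic members. It stood at 234, 241 and 231 CPM under siNT and at 126, 121 and 128 CPM under the siMt2 label. The groups lay far apart, with replicates within a few percent of each other, and the log2 fold change was -0.91 (SE 0.05, edgeR adjusted p = 2.96e-11), or 0.532 times the siNT level (95% interval 0.491 to 0.575).

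Rars, the arginine enzyme, lay at 226, 215 and 212 CPM under siNT and at 155, 145 and 149 CPM under the siMt2 label (log2 fold change -0.53, SE 0.05, edgeR adjusted p = 8.69e-08). Lars, the leucine enzyme, lay at 484, 481 and 503 CPM and at 333, 346 and 380.3 CPM (-0.48, SE 0.05, adjusted p = 1.03e-07). In both genes all 3 libraries labelled siMt2 were below all 3 siNT libraries, and in Lars replicate 3 was the least reduced. Iars, which charges isoleucine, was lower by a smaller step, at 162, 186 and 151 CPM against 125, 138 and 131 CPM (-0.34, SE 0.07, adjusted p = 5.48e-04). Relative to their mean its siNT replicates were the most scattered of the complex members, and the groups still did not overlap. Mars, the methionine enzyme, went from 372, 372 and 368 CPM to 319, 309.8 and 327 CPM (-0.22, SE 0.04, adjusted p = 3.62e-04), a small change between tightly grouped replicates.

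Kars was among the 2 genes that went the other way within the same complex. Kars, the lysine enzyme of both compartments, stood at 203, 191 and 203 CPM under siNT and at 216, 237 and 237 CPM under the siMt2 label (log2 fold change 0.20, SE 0.05, edgeR adjusted p = 0.00382). All of its siMt2 values were above the siNT values. Eprs, the joined glutamate and proline enzyme, had 1640.5, 1730.2 and 1679 CPM against 1716, 1671 and 1805 CPM. Its groups overlapped, and the log2 fold change of 0.04 (SE 0.04, 95% interval -0.04 to 0.12, adjusted p = 0.4) has an upper bound of 1.09 times the siNT level.

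Of the 3 scaffold genes of the complex, 2 passed the test as lower, 1 of them close to the threshold. Aimp2, which binds the Kars product in the particle, went from 72.9 ± 4.80 to 57.5 ± 6.62 CPM (SD, n = 3 each; log2 fold change -0.33, SE 0.09, edgeR adjusted p = 0.00546). Aimp1 went from 91.0 ± 5.39 to 78.6 ± 11.4 CPM (-0.23, SE 0.09, adjusted p = 0.0384), with overlapping groups. The Aimp1 call was lost with upper quartile scaling (adjusted p = 0.0787), with DESeq2 (0.0926) and without siNT replicate 2 (0.134), siNT replicate 3 (0.0961), siMt2 replicate 1 (0.185) or siMt2 replicate 2 (0.198), over a range of 7.01e-04 to 0.198 for all alternatives. Eef1e1, the third scaffold gene, lay at 47.6 ± 5.61 and 55.4 ± 7.26 CPM and did not pass (0.21, SE 0.11, adjusted p = 0.126). The summed level of the 8 synthetase genes of the complex was 3458, 3557 and 3483 CPM under siNT and 3169, 3142 and 3348 CPM under the siMt2 label, lower in each.

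**Figure D2:**
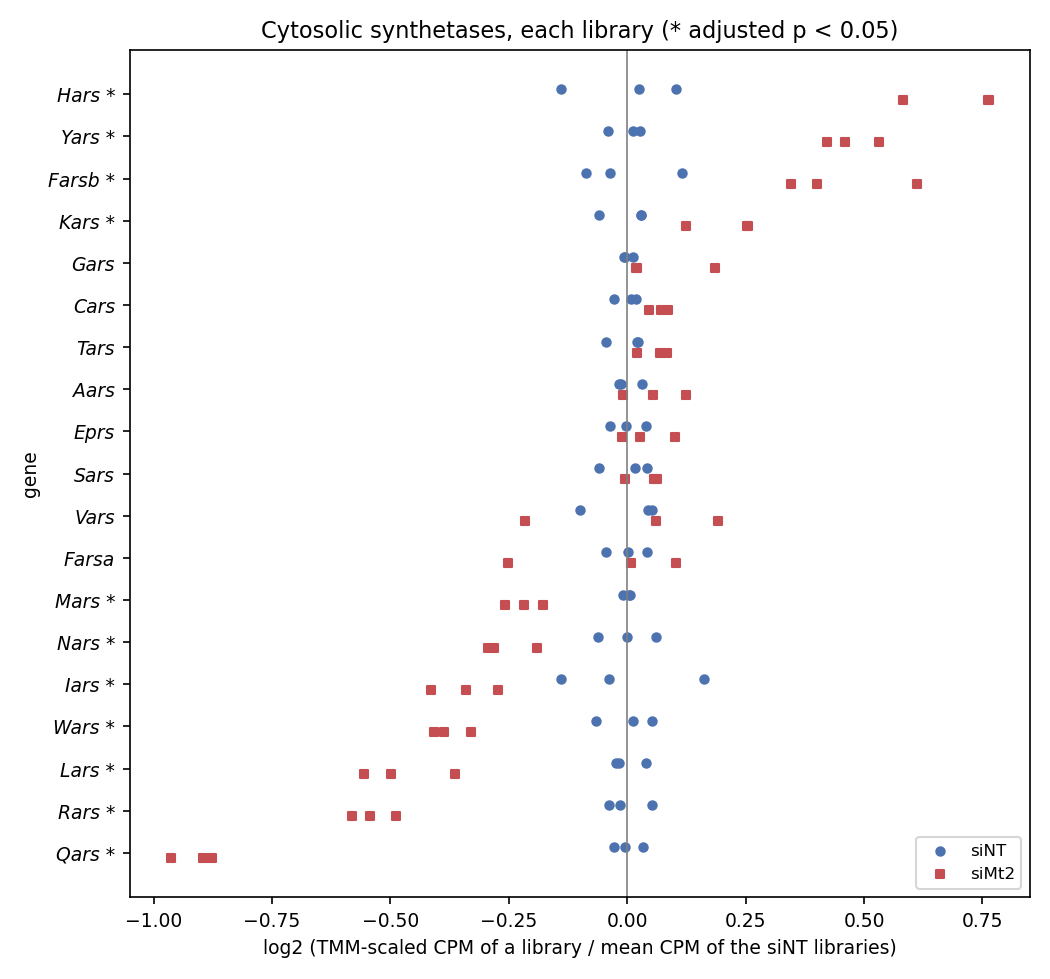
Log2 ratio of the TMM-scaled CPM of each library to the mean of the siNT libraries for cytosolic synthetase genes, ordered by fold change, with circles for siNT and squares for siMt2 and an asterisk for an adjusted p under 0.05. The squares of Qars lie farthest left, those of Hars farthest right, and the groups of 6 genes overlap.

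Outside the complex the changes were fewer, with 3 rises led by histidine and tyrosine. Hars, the histidine enzyme, stood at 62.0, 52.3 and 58.7 CPM under siNT and at 97.8, 86.3 and 97.9 CPM under the siMt2 label (log2 fold change 0.70, SE 0.09, edgeR adjusted p = 1.01e-06). This was the largest rise of a cytosolic member, 1.62 times the siNT level (95% interval 1.43 to 1.84). Yars, the tyrosine enzyme, stood at 296, 283 and 293 CPM and at 389, 400.1 and 420.1 CPM (0.47, SE 0.05, adjusted p = 5.89e-08). Farsb, the beta subunit of the phenylalanine enzyme, stood at 106, 118 and 102 CPM and at 144, 138 and 166 CPM (0.45, SE 0.07, adjusted p = 3.23e-05). In all 3 genes the groups were apart.

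The enzyme that Farsb belongs to is a tetramer of alpha and beta subunits, and only the beta transcript passed the test. Farsa, the alpha subunit, lay at 69.5, 67.6 and 65.4 CPM under siNT and at 72.6, 67.9 and 56.7 CPM under the siMt2 label. It was the cytosolic member nearest to no change (log2 fold change -0.02 with a 95% interval of -0.21 to 0.17, SE 0.09, edgeR adjusted p = 0.89), against an interval of 0.30 to 0.61 for Farsb. The difference between the subunits was not itself tested.

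Wars and Nars were the cytosolic members outside the complex that fell. Wars, the tryptophan enzyme, which interferon is known to induce, lay at 323, 340.3 and 350.1 CPM under siNT and at 258, 254 and 269 CPM under the siMt2 label (log2 fold change -0.38, SE 0.05, edgeR adjusted p = 2.06e-06). Nars, the asparagine enzyme, lay at 665, 724 and 694 CPM and at 571, 566 and 608 CPM (-0.26, SE 0.04, adjusted p = 6.25e-05). The groups of both were apart by a small margin relative to their level.

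The remaining 6 cytosolic members, Gars (glycine), Cars (cysteine), Aars (alanine), Tars (threonine), Sars (serine) and Vars (valine), did not pass, with log2 fold changes between 0.04 and 0.07 and adjusted p between 0.213 and 0.741. Their 95% intervals together reached from 0.905 to 1.16 times the siNT level, the widest being that of Vars. Gars lay at 449.6, 449 and 455 CPM against 457, 457 and 513 CPM, so that its groups were apart by a small step without passing. Cars lay at 307, 304 and 297 CPM against 321, 313 and 318 CPM, likewise apart. Vars, at 187, 189 and 169.8 CPM against 189.8, 208 and 157 CPM, was lowest in siMt2 replicate 3, and without that library it passed (0.13, adjusted p = 0.0471; its adjusted p over all alternatives ran from 0.0471 to 0.906).

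The cytosolic members were also counted by catalytic class. Of 9 class I genes 6 fell, 1 rose (Yars) and 2 did not pass, whereas of 10 class II genes 1 fell (Nars), 4 rose (among them Hars, Farsb and Kars) and 5 did not pass. Over all genes tested 25.8% were higher and 25.1% lower, and the 50% called in class II is close to the 50.9% of all genes. The median log2 fold change was -0.34 for class I and 0.07 for class II. Eprs, which holds an activity of each class, was counted in neither. Class and membership of the complex overlap, since 5 of the 6 class I genes that fell sit in the complex, and the difference between classes was not tested. Groups that did not overlap were seen for 14 of the 20 cytosolic members, 7 above and 7 below, and for 7 of the 15 mitochondrial ones tested, 2 above and 5 below, where 57.6% of all genes tested had such groups, 28.9% above and 28.7% below.

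The 7 cytosolic genes with the TGATGNAA element did not move together. Yars rose, Iars, Mars and Nars fell, and Aars, Cars and Tars did not pass. Other letters searched in the same windows were CACGTG, the E-box bound by MYC, found for 5 of 17 cytosolic and 1 of 16 mitochondrial members (9.36% of windows of genes tested), and CCGGAAG, an ETS element, found for 9 and 6 (17.7%). The element of NRF1 was found for 3 cytosolic and 3 mitochondrial members (10.0%). Members with an ETS element rose in 4 cases (Hars, Kars, Pars2 and Rars2), fell in 6 and did not pass in 5. The ETS sites of Hars and Hars2, which are neighbours on opposite strands, are the same stretches of DNA and were counted for each gene.

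Mitochondrial synthetases changed in 6 of 15 cases tested (40.0%, where 50.9% of all genes tested were called). Of these 6, 4 were lower, which is 26.7% of the 15 beside 25.1% of all genes tested. Iars2, the isoleucine enzyme, had the most counts of the mitochondrial members. It stood at 173, 181 and 169.5 CPM under siNT and at 126, 117 and 125 CPM under the siMt2 label, with a wide gap between the groups (log2 fold change -0.51, SE 0.06, edgeR adjusted p = 4.39e-07). Cars2, the cysteine enzyme, fell to about 0.523 of its level (95% interval 0.395 to 0.693), from 16.4, 13.4 and 17.6 CPM to 9.64, 7.33 and 7.40 CPM (-0.93, SE 0.19, adjusted p = 4.50e-04). Yars2, the tyrosine enzyme, lay at 17.9, 16.7 and 16.6 CPM and at 11.1, 9.22 and 11.6 CPM (-0.68, SE 0.17, adjusted p = 0.00247). All libraries labelled siMt2 were below all siNT libraries in these genes.

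Rars2, the mitochondrial arginine enzyme, had the largest fitted rise among all members. It stood at 12.1, 9.56 and 12.1 CPM under siNT and at 19.3, 17.7 and 20.1 CPM under the siMt2 label (log2 fold change 0.74, SE 0.17, edgeR adjusted p = 9.99e-04), or 1.67 times the siNT level (95% interval 1.31 to 2.12). Its groups were well apart.

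The calls of Pars2 and Aars2 were close to the threshold. Pars2, the proline enzyme, lay at 9.57, 8.13 and 7.82 CPM under siNT and at 12.99, 10.6 and 14.4 CPM under the siMt2 label (log2 fold change 0.57, SE 0.20, edgeR adjusted p = 0.0242). The call was lost without siNT replicate 2 (adjusted p = 0.062) or 3 (0.095) and without siMt2 replicate 1 (0.0845) or 3 (0.0551), over a range of 0.0168 to 0.095 for all alternatives. Aars2, the alanine enzyme, lay at 8.49, 9.08 and 6.13 CPM and at 5.11, 5.44 and 2.47 CPM (-0.77, SE 0.29, adjusted p = 0.0301). The lowest value, from siMt2 replicate 3, rests on 7 counts, and without that library the log2 fold change was -0.57 (adjusted p = 0.0942). The Aars2 call was also lost without siNT replicate 1 (0.0956), siNT replicate 2 (0.108) or siMt2 replicate 1 (0.0516), over a range of 0.0152 to 0.108.

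**Figure D3:**
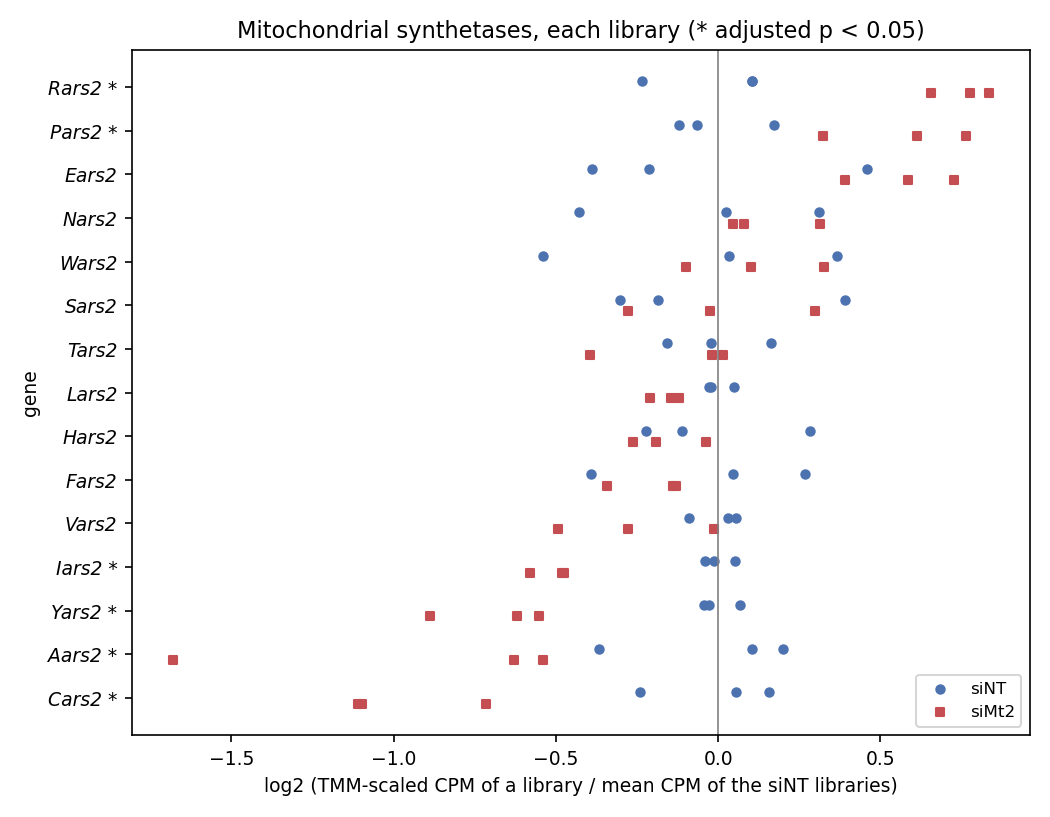
Log2 ratio of the TMM-scaled CPM of each library to the mean of the siNT libraries for 15 mitochondrial synthetase genes, ordered by fold change, with circles for siNT and squares for siMt2 and an asterisk for an adjusted p under 0.05. The circles spread more widely than those of the cytosolic genes, and the square farthest left is the Aars2 value of siMt2 replicate 3, at 2.47 CPM.

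The 9 mitochondrial members tested that did not pass had wide intervals. Ears2, the glutamate enzyme, lay at 9.03, 5.02 and 5.67 CPM under siNT and at 8.61, 10.9 and 9.86 CPM under the siMt2 label (log2 fold change 0.55, SE 0.25, edgeR adjusted p = 0.0744). Its groups overlapped through siNT replicate 1, and without that library it passed (0.84, adjusted p = 0.0169; 0.0169 to 0.239 over all alternatives). Lars2, the leucine enzyme, lay at 21.1, 21.0 and 22.2 CPM and at 18.5, 19.4 and 19.7 CPM, apart but not passing (-0.17, SE 0.14, adjusted p = 0.317). Sars2, the serine enzyme, was the mitochondrial member nearest to no change, at 3.25, 5.26 and 3.53 CPM and at 3.94, 3.31 and 4.93 CPM, with a 95% interval of 0.631 to 1.62 times the siNT level. The other 6, Vars2, Hars2, Fars2, Tars2, Nars2 and Wars2, had log2 fold changes between -0.24 and 0.15 and overlapping groups.

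Mars2, the mitochondrial methionine enzyme, was near the limit of detection. It had 0 counts in each siNT library and 1, 3 and 0 counts under the siMt2 label, at or under the 3 counts that a 0 allows, so it was not tested and no fold is given.

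Cytosolic and mitochondrial genes of the same amino acid were set side by side. Pairs were formed by symbol, from a cytosolic gene and the mitochondrial gene of the same name with the suffix, where both were tested. Phenylalanine, glutamate and proline have tested members in both compartments but no such pair, and were left out. For 5 of the 12 pairs (Aars, Cars, Hars, Vars and Yars) the ratio of cytosolic to mitochondrial CPM was higher in all libraries labelled siMt2 than in all siNT libraries. The ratio was lower in all for 3 (Lars, Nars and Rars) and overlapping for 4. Of all single genes tested, 57.6% had groups that did not overlap, and the share among ratios of other gene pairs was not determined. The ratios of the 12 pairs are descriptions without a test of their own, and the change of a ratio between groups does not depend on gene length. Arginine showed the widest divergence of the 12 pairs, with the log2 ratio of Rars to Rars2 going from 4.28 ± 0.19 to 2.98 ± 0.07 (SD, n = 3 each), a difference of -1.30, since the cytosolic gene fell while the mitochondrial one rose. Tyrosine diverged in the opposite sense, the log2 ratio of Yars to Yars2 going from 4.09 ± 0.05 to 5.25 ± 0.17, a difference of 1.16. For isoleucine both genes fell, Iars by 0.34 and Iars2 by 0.51 on the log2 scale, and their ratio overlapped between the groups.

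Hars and Hars2 are neighbours that start 144 bases apart on opposite strands in GRCr8, so that 1 stretch of DNA lies upstream of both. Hars rose, as given above, whereas Hars2 lay at 41.7, 31.8 and 29.4 CPM under siNT and at 30.1, 28.6 and 33.5 CPM under the siMt2 label (log2 fold change -0.17, SE 0.13, edgeR adjusted p = 0.298). The log2 ratio of Hars to Hars2 went from 0.76 ± 0.22 to 1.61 ± 0.08 (SD, n = 3 each), with groups apart.

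**Figure D4:**
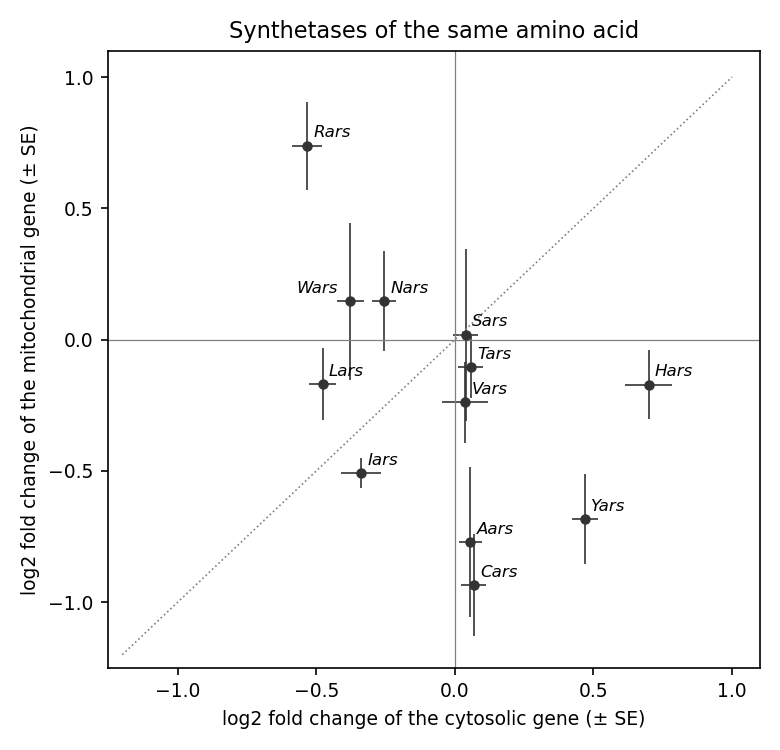
Log2 fold change (siMt2 over siNT, with SE) of the cytosolic gene on the horizontal axis and of the mitochondrial gene on the vertical axis for 12 amino acids, each point named by its cytosolic gene; the dotted line marks equal change. Rars lies at the upper left with a fall of the cytosolic and a rise of the mitochondrial gene, and Yars and Hars lie at the lower right.

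Summed over members, the cytosolic synthetases took 0.737%, 0.754% and 0.737% of all counts under siNT and 0.721%, 0.718% and 0.748% under the siMt2 label, so the groups overlapped. The mitochondrial ones took 0.0406%, 0.0393% and 0.0382% and then 0.0337%, 0.0325% and 0.0327%, lower in every library labelled siMt2. Iars2 carried much of this. Without it the summed level of the mitochondrial members was 235, 215 and 215 CPM against 209.6, 207 and 205 CPM, still lower in each, with a change of the mean of -6.51% in place of -16.8%.

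Partners of the synthetases were taken from lists of genes around tRNA charging. Of 12 genes for proofreading, amidation, selenocysteine and formylation, 3 rose, 3 fell and 6 did not pass, so that 50% were called where 50.9% of all genes tested were. Prorsd1, a relative of the editing domain of prolyl-tRNA synthetases, rose from 4.38 ± 0.941 to 10.2 ± 1.51 CPM (SD, n = 3 each; log2 fold change 1.18, SE 0.25, edgeR adjusted p = 6.30e-04), and Dtd1, which removes D-amino acids from tRNA, rose as well (0.76, SE 0.15, adjusted p = 2.38e-04). Mtfmt, which formylates the mitochondrial initiator methionyl-tRNA, rose from 7.74 ± 2.19 to 13.8 ± 1.01 CPM (0.81, SE 0.21, adjusted p = 0.00348).

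The mitochondrial amidotransferase that makes glutaminyl-tRNA in place of a synthetase has 3 subunits. All were lower in each library labelled siMt2 than in any siNT library, as were 28.7% of all genes tested. Gatb fell from 24.0 ± 4.48 to 14.4 ± 1.87 CPM (SD, n = 3 each; log2 fold change -0.71, SE 0.17, edgeR adjusted p = 0.00129). Gatc fell (-0.33, SE 0.10, adjusted p = 0.0128), and Qrsl1 missed the threshold (-0.70, SE 0.29, adjusted p = 0.0529); these 2 genes were named after their values were seen. The Gatc call was lost without siNT replicate 3 (adjusted p = 0.0678) or siMt2 replicate 1 (0.0603), over a range of 0.00834 to 0.0678, and Qrsl1 passed with the stricter filter (0.0473) or without siNT replicate 1 (0.0412). Qrsl1 had between 12 and 41 counts in a library. Qars and the amidotransferase together cover glutaminyl-tRNA in the cytosol and in mitochondria.

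Elongation factor 1, which takes charged tRNA from the synthetases to the ribosome and whose nucleotide exchange complex binds the valine enzyme, went both ways by small steps. Eef1g rose from 1727 ± 24.4 to 1918 ± 84.0 CPM (SD, n = 3 each; log2 fold change 0.15, SE 0.04, edgeR adjusted p = 0.0021) and Eef1d rose (0.16, SE 0.05, adjusted p = 0.0102), Eef1b2 fell (-0.26, SE 0.06, adjusted p = 5.96e-04), and Eef1a1 did not pass (0.01, SE 0.03, adjusted p = 0.742). Eef1d no longer passed without siNT replicate 2 (adjusted p = 0.056). Of 10 mitochondrial translation factors 2 rose and 2 fell, so that 40% were called where 50.9% of all genes tested were. Gfm2 (0.44, SE 0.11) and Guf1 (0.37, SE 0.13) were higher, and Tufm, which brings charged tRNA to the mitochondrial ribosome (-0.42, SE 0.09), and Mtif3 (-0.42, SE 0.14) were lower. With DESeq2 neither Mtif3 (adjusted p = 0.0594) nor Guf1 (0.0659) passed. Mtif3 was also lost without siMt2 replicate 1 (0.0814) and lay at 0.05 without siNT replicate 2, and Guf1 was lost without siNT replicate 1 (0.11) or 3 (0.0504) and without siMt2 replicate 1 (0.0826) or 3 (0.0724). Of 10 genes of mitochondrial tRNA maturation and modification, 1 rose, Trmu (1.33, SE 0.24), and 1 fell, Mto1 (-0.93, SE 0.17), which makes 20% called, fewer than among all genes tested. Trmu and Mto1 act on the wobble base of some of the same tRNAs.

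Genes of the ATF4 response, which many cytosolic synthetases are known to join, were higher in 16 of 31 cases tested and lower in 6, where 25.8% and 25.1% of all genes tested were. Atf4 itself went from 442 ± 2.94 to 478 ± 14.4 CPM (SD, n = 3 each; log2 fold change 0.11, SE 0.04, edgeR adjusted p = 0.0316), and its kinase gene Eif2ak4, which encodes GCN2, did not pass (0.01, SE 0.11), both named outside the rule for naming genes. The Atf4 call was lost with no filter (adjusted p = 0.0856), with DESeq2 (0.0956) and without siNT replicate 1 (0.0765), 2 (0.0745) or 3 (0.102) or siMt2 replicate 2 (0.0708). Sesn2, Vldlr, Psph and Shmt2, also among the 16, lost their calls with DESeq2 (adjusted p = 0.0979, 0.0712, 0.0513 and 0.0589). Over all alternatives they lost them in 5, 6, 4 and 7 cases. Cebpb, among the 6 lower, lost its call in 5 cases, DESeq2 included (adjusted p = 0.0696). All of these were named after their values were seen. The calls with the smallest adjusted p were Ddit3, a stress transcription factor (1.63, SE 0.08), Pycr1, an enzyme of proline synthesis (2.3, SE 0.12), Ppp1r15a, which ends the response (1.12, SE 0.06), and the cystine transporter gene Slc7a11 (0.82, SE 0.05). Other genes of the list fell, among them Chac1, which degrades glutathione (-1.10, SE 0.07), and Asns, the asparagine synthetase that is often read as an ATF4 target (-0.24, SE 0.04); this pair was picked with values in view. The cytosolic synthetases, with 5 of 20 higher and 7 of 20 lower, showed another split of calls than this list, a difference that was not tested.

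MYC, which also acts on genes of protein synthesis, had higher transcript levels in the libraries labelled siMt2, and of 11 genes of its network and targets 7 rose and 2 fell, where 25.8% and 25.1% of all genes tested did. Ncl, the nucleolin gene, rose from 601 ± 19.1 to 1257 ± 75.9 CPM (SD, n = 3 each; log2 fold change 1.06, SE 0.04, edgeR adjusted p = 1.21e-13), and Myc (0.72, SE 0.11), Npm1 (0.32, SE 0.05) and Nop56 (0.28, SE 0.07) rose. The 7 also hold Mxd4 (0.42, SE 0.12) and Mxd1 (0.48, SE 0.18), whose products oppose MYC. Mnt, whose product also opposes MYC, fell (-0.31, SE 0.11). The target Cad fell (-0.20, SE 0.05) and the target Odc1 did not pass (0.07, SE 0.05). Mxd4, Mxd1, Mnt, Cad and Odc1 were named after their values were seen. The Mxd1 call was lost with DESeq2 (adjusted p = 0.0794) and without siNT replicate 2 (0.12), siNT replicate 3 (0.104), siMt2 replicate 1 (0.068) or siMt2 replicate 2 (0.121). The Mnt call was lost with DESeq2 (adjusted p = 0.0857) and without siNT replicate 1 (0.0873) or siMt2 replicate 1 (0.0562). Of the 5 cytosolic synthetases with CACGTG in the promoter window, Farsb rose, Iars fell, and Aars, Tars and Vars did not pass.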

How the data were processed

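RNA-seq of 6 libraries, 3 labelled siNT and 3 labelled siMt2, was analysed from gene counts. Per the submitters' processing notes, Trimmomatic 0.40, HISAT2 2.2.1, featureCounts, limma, DESeq2 and build rn6 were used; the settings, strand handling and treatment of reads matching several genes are not named by any source used here. The authors deposited raw whole-number counts per gene. Rows whose names a spreadsheet had turned into dates stayed in totals and tests. Samples were grouped by title; nothing says that replicates came from separate cultures, so p-values reflect only how far these libraries vary, possibly for technical reasons. Libraries of 1 group, compared pairwise, varied 1.57 to 2.23 times as much as counting predicts, and none was taken as a repeat.

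Counts were fitted in R 4.3.3 with edgeR 4.0.16 (filterByExpr with minimum count 10, TMM, quasi-likelihood test, two-sided, Benjamini-Hochberg over all genes tested). Intervals are 95% and cover the spread between libraries. The procedure was tested on simulated counts with 1 level of spread common to all genes. It recovered 62.6% of log2 changes of 0.5 and 92.9% of changes of 1, and 6.1% of its calls were false. Smaller changes were not simulated. Alternatives were DESeq2 size factors, upper quartile and total scaling, no and a stricter filter (10 counts in every library of a group, mean CPM 1), a block for replicate number, omission of each library, DESeq2 1.42.0 and limma-voom (limma 3.58.1). Members, lists and tests were chosen with earlier results of these data known. Values by library are given for members that pass, up to 14 cytosolic and 10 mitochondrial, and for the member of each compartment nearest to no change. Those of Eprs, Gars, Cars, Vars, Ears2, Lars2, Hars2 and Mars2 are given outside this rule, with the results known. Of other lists, the rule takes up to 4 passing genes with the smallest adjusted p. Values of 1 member and 1 promoter site are not reported here. Gene names and promoters come from RefSeq tables of GRCr8, which is not the build of the counts.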

Additional observations from a re-analysis of the deposited data

How the results depend on the processing

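All 12 calls of cytosolic members kept their direction and passed under all 14 alternatives, as did Iars2, Cars2, Rars2 and Yars2; Aars2 and Pars2 did so under 9 of 14. Lost with DESeq2 were Aars2 (adjusted p = 0.0697) and Pars2 (0.0767), which left 1 mitochondrial member higher and 3 lower; with 1 library left out, 1 to 3 mitochondrial members were higher (1 without siNT replicate 2 or 3 or siMt2 replicate 1 or 3) and 3 to 4 lower, and 5 to 6 cytosolic members were higher and 7 lower. Under upper quartile scaling, which moved the median of all genes to 0.04, the cytosolic median was 0.0772, 7 cytosolic members were higher with Gars (adjusted p = 0.0468) and Cars (0.048) added, and 55.4% of all calls were upward against 50.7%. With Gars and Kars left out, 4 were higher and 7 lower. The replicate block gave 5 and 7 cytosolic and 2 and 4 mitochondrial calls, as without it, and 2968 genes higher and 2929 lower of all tested. It changed no call of a member. Correlations of same-numbered deviations were -0.0018, -0.06 and 0.0234, beside -0.0628 to 0.0755 for libraries of different number. No pairing by replicate number was seen, but such small correlations cannot exclude one where counting noise is a large part of the deviations. Mt2a did not pass under any alternative run (adjusted p = 0.264 to 0.954, log2 fold change -0.56 to 0.05 with 1 library left out). The SE of the log2 fold change had a median of 0.05 for cytosolic and 0.19 for mitochondrial members, so a change as small as that of Kars (0.20) was about 1 SE at the mitochondrial median.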
